A study of Papio papio with 23 samples.

Results

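Gene levels were described in the blood of 5 adult male baboons (Papio papio) sampled before any irradiation, the group titled H0. These 5 arrays were chosen by their titles out of 23 arrays in the series, with 1 array per baboon. The other 18 arrays came from irradiated baboons and were used here only to compare the spread between animals. They hold groups H1-2 and H2-3, named for the later grade of haematological acute radiation syndrome (the loss of blood cells after irradiation). These groups have 4 and 5 arrays on day 1, and 4 and 5 on day 2. The titles number the baboons within each group and day and do not state that a number names the same animal on both days. The labels give gamma irradiation of the total or part of the body with an equivalent dose of 2.5 or 5 Gy for the study as a whole, not for single animals. They give a mean age of 8.1 ± 3.3 years for the baboons together. Blood was drawn into PAXgene tubes, which lyse the cells and fix their RNA, at 2.5 ml per sample, and 100 ng of total RNA was labelled. The sources used here do not say whether the H0 baboons were later irradiated.

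Whole blood RNA is a mixture. Reticulocytes, the last red cell stage that still holds RNA, carry very abundant globin messenger RNA, platelets carry RNA inherited from megakaryocytes, and the white cells (neutrophils, lymphocytes, monocytes and rarer types) carry the rest. The share of each white cell type differs between healthy animals and changes with time of day, stress and infection, so the blood level of a cell type's genes follows both the number of its cells and the RNA per cell, and these cannot be told apart in bulk blood. In every statement below, a level is the log2 signal minus the 75th percentile of all non-control probes on the same array, so that 0 marks that percentile. Human probes were hybridised with baboon RNA, and a probe's signal depends on its letters as well as on the transcript, so an order of genes by level is an order of probe signals.

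The arrays carried signal from a similar part of the probes. A probe counted as detected when the scanner software flagged it as well above background. This held for 44.9 to 51.3% of the 50599 probes per array, with the lowest share in baboon 4, and no spot was saturated. The 75th percentile of the signal was between 82.4 and 123. Baboons 1 and 2 shared a slide and a scan day with no other group. Baboons 3 and 4 shared a second slide, baboon 5 shared another slide with 1 irradiated array, and baboons 3, 4 and 5 were scanned on the same day as 9 irradiated arrays.

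Of 36337 gene names on the array, 16851 (46.4%) were detected in all 5 baboons, 5412 in 1 to 4 and 14074 in none. Among the 19077 names that are gene symbols, 11763 (61.7%) were detected in all 5. Coding transcripts were detected most often. Of the probes for RefSeq messenger RNA, 58.1% were detected on all 5 arrays, against 32.96% for RefSeq noncoding RNA and 15.7% for long intergenic noncoding RNA. The median level of the detected probes was 0.93 in the first class and -0.50 in the last.

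Genes of every main blood cell type were detected. HBB and HBA2, the adult beta and alpha globins, had the brightest probes of all gene names. The platelet chemokines PF4 and PPBP, the granulocyte colony-stimulating factor receptor CSF3R, the monocyte coreceptor CD14, the T cell receptor subunits CD3D, CD3E and CD3G, and the B cell receptor subunit CD79A were detected in all 5 baboons. Genes that define other tissues were detected less often than symbols as a whole. Of 59 genes typical of liver, skeletal muscle, brain or epithelium, 34 were detected in none and 15 in all 5. Of all 19077 symbols, 4769 were detected in none and 61.7% in all 5. A human probe at background does not show that the baboon RNA is absent. Of 18 commonly used reference genes 1 was detected in none, and of 79 genes of cytosolic ribosomal proteins 1. ALB (albumin), ACTA1 (skeletal actin), GFAP (astrocytes) and KRT5 (basal epithelium) were at background in every baboon. Those detected in all 5 included KRT18 at 4.81 ± 0.61 (SD, n = 5), MBP at 4.01 ± 0.29 and DES at 3.89 ± 0.56. Of 10 Y-linked genes, 7 were detected in all 5 animals, RPS4Y1 at 4.95 ± 0.26, and ZFY, TMSB4Y and NLGN4Y in none. Of the defining blood markers, MS4A1 (the B cell protein CD20) was detected only in 1 baboon, and MPO (myeloperoxidase) and CD34 (a stem cell marker) in 4.

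Many of the brightest probes were named for genes that are not known for high expression in blood, and several of these hold letters of the Alu repeat, the most abundant interspersed repeat of primate genomes. A search was made for 4 strings of 9 letters, CTGTAATCC, CCAGCCTGG, GGCTGAGGC and CTACTAAAA, on both strands. The strings were chosen after the brightest probes had been seen. They were held by 46, 63, 41 and 35 of the 50599 probes (0.0909%, 0.125%, 0.0810% and 0.0692%), and 176 probes (0.348%) held at least 1. Among the 20 symbols with the highest level, the probes named for PQLC2, ZNF865, FAM74A4, AS3MT, CYP2W1 and FUT6 each held 1 or more.

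The share of probes with such a string increased with brightness. Since the strings were chosen after the brightest probes had been seen, that choice may set part of this increase. Of the probes detected in none of the baboons 0.179% held 1, and of those detected in all 5 0.580%. Among the 1000 brightest probes it was 3.90%, among the 100 brightest 21.0% and among the 20 brightest 35.0%. Of the 20 symbols with the highest level, 8 had a probe with a string. These probes also varied little between baboons. Above a level of 9, the median SD of the 22 probes with a string was 0.14, and that of the 125 without was 0.28. A match is a description of the letters, and which transcripts bound these probes was not measured. The PQLC2 probe, for instance, read 11.96, 11.73, 11.97, 12.09 and 11.85 in baboons 1 to 5.

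**Figure D1:**
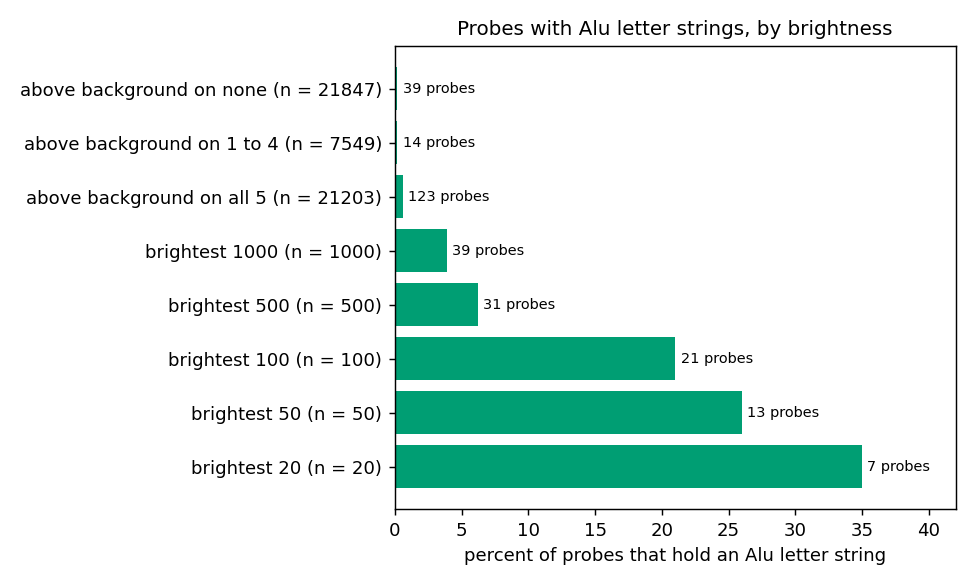
Percent of probes that hold at least 1 of the 4 Alu letter strings (x axis), for probes grouped by detection in the 5 unexposed baboons and for the brightest 1000 to 20 probes by mean level, with the number of such probes beside each bar. The share is 0.179% among probes detected in none and 35.0% among the 20 brightest, which had been seen before the strings were chosen.

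With probes that hold a string left out, the order was led by HBA2, HBB, ALAS2 (the first enzyme of haem synthesis in red cells), RN28S1 (28S ribosomal RNA), HBD (delta globin) and the HLA class I genes HLA-G, HLA-J, HLA-F and HLA-C. HLA genes are near-identical to each other, so their probes may read several of them. HBA2 read 12.57, 12.22, 12.31, 12.42 and 12.20 in baboons 1 to 5, and HBB 12.47, 12.17, 12.23, 12.34 and 12.17. ALAS2 read 12.10, 11.70, 11.88, 11.72 and 11.52. Baboon 1 was the highest for all 3, as it was for 34.8% of all 16851 genes, the largest share of any baboon. The 5 animals lay close together. HBG1, the fetal gamma globin, stood at 11.27 ± 0.19 (SD, n = 5). ACTB (beta actin) stood at 11.10 ± 0.26. The top of the order was shared between animals: 81 genes were among the 100 brightest in all 5, and 122 were among the 100 brightest in any.

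The median SD between the 5 baboons was 0.41 on the log2 scale, a factor of 1.32, over the 16851 genes detected in all 5, with 0.17 at the 5th percentile and 0.87 at the 95th. In 8322 genes (49.4%) the highest and the lowest baboon lay less than 1 log2 unit apart, and 441 (2.62%) had an SD over 1. Replicate spots gave a measure of scatter within an array. The 560 probes with 10 spots per array that were detected in all 5 had a median SD of 0.0821 between spots of an array, against 0.41 between baboons. Scatter between spots leaves out labelling and differences between arrays. The SD differed little with the level. The median SD was 0.41 for genes below -1 and 0.40 for those between 7 and 9, and 0.27 for the 130 genes over 9.

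**Figure D2:**
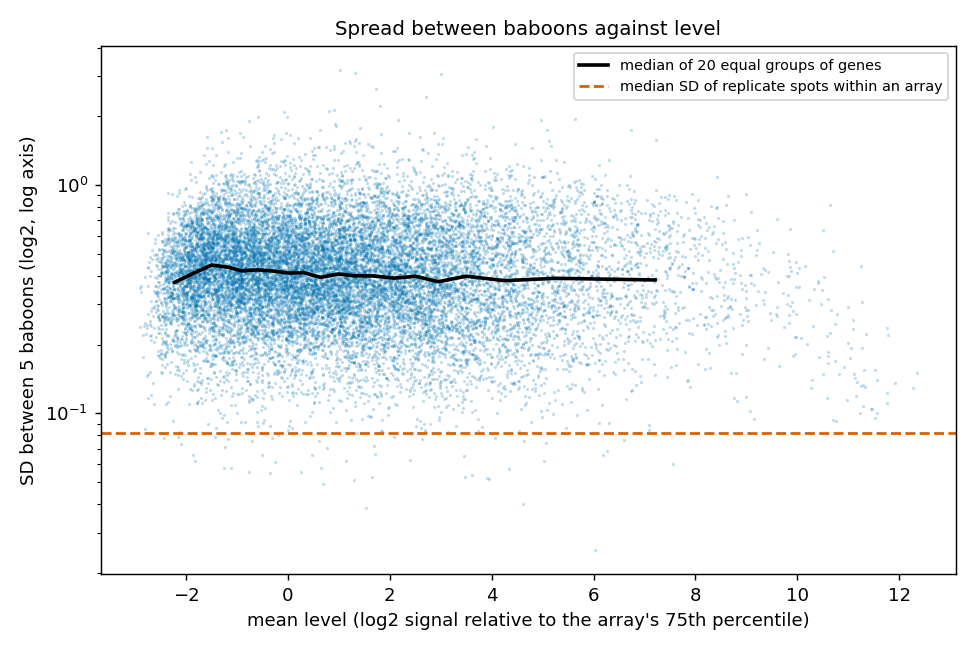
SD between the 5 unexposed baboons (y axis, log2 units on a log axis) against mean level (x axis, log2 signal relative to the array's 75th percentile), 1 point per gene detected in all 5. The black line joins medians of equal groups of genes and stays near 0.41, above the dashed line at 0.0821, the median SD of replicate spots within an array.

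Spike-in transcripts, added in the same amount to every sample, gave a second measure of scatter. The 8 detected of 10 had a median SD of 0.27 between arrays before scaling and 0.33 after it, and their mean level lay between 3.78 (baboon 3) and 4.64 (baboon 4). Once each array's spike-in mean was removed, the median SD was 0.0611. The part of the array-wide offset in the SDs of single genes was not tested.

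Baboon 1 stood apart from the others. The correlation of its levels with those of another baboon, over the genes detected in all 5, was 0.93 to 0.96, whereas the other pairs lay between 0.96 and 0.98. Genes are not independent replicates, so these are descriptions. The median absolute difference was 0.54 to 0.59 between baboon 1 and baboons 3, 4 and 5, and 0.45 between baboon 1 and baboon 2 of the same slide. It was 0.31 to 0.43 among the other pairs, with 0.41 for baboons 3 and 4 of 1 slide. A test of slides within H0 with limma called 11 of 16851 genes (0.0653%) at an adjusted p under 0.05. A test of scan days called 0 (0.0%), with 2169 genes at an unadjusted p under 0.05. Without baboon 1 the median SD was 0.34.

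Among the 31 lists, that of neutrophils, phagocytes that make up much of the white cells, had the largest SD of its mean. The 21 detected genes of the neutrophil list averaged 2.36, 4.25, 5.22, 3.72 and 3.43 in baboons 1 to 5, an SD of 1.06. Baboon 3 was the highest for 18 of the 21 and baboon 1 the lowest for 17. Across all 16851 genes, baboon 1 was the highest in 34.82% and baboon 3 in 21.99%. Baboons 1, 3 and 5 were the lowest in 28.35%, 18.98% and 21.93% of them, shares that also apply to the lists below. The median SD of the members was 1.05, against 0.41 over all genes, and that of the secondary granule and inflammatory lists was slightly higher, at 1.06 and 1.07. CSF3R read 8.12, 9.40, 10.12, 9.20 and 8.61. S100A8, a calcium-binding protein that fills the neutrophil cytosol, read 5.15, 7.96, 9.37, 6.93 and 6.72. VNN2, a surface enzyme of the vanin family, read 3.00, 6.98, 8.03, 4.85 and 5.28, and CD177, a neutrophil surface glycoprotein, read -0.20, 2.52, 5.08, 2.04 and 1.33. CXCR2, the receptor for interleukin 8 and related chemokines, stood at 3.23 ± 0.91 (SD, n = 5), and baboon 1 was again the lowest. CEACAM3 and CMTM2 were at background in all 5. The list SD was 0.79 without baboon 1 and 0.80 without baboon 3, where that of the secondary granule list was 0.85.

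Granule genes took more than 1 order among the baboons. Secondary and gelatinase granules form late in neutrophil maturation, and their 9 detected genes averaged 2.37, 3.59, 4.58, 4.30 and 3.98, with baboon 1 the lowest for 8. MMP9 (gelatinase B) stood at 8.40 ± 0.79 and HP (haptoglobin, which binds free haemoglobin) at 6.74 ± 1.74. LTF (lactoferrin) took another order: it read 0.38, -0.95, -0.37, 3.57 and 1.98, with baboons 4 and 5 the highest. The primary granules form at the promyelocyte stage, and their 6 detected genes averaged 1.13, 1.16, 1.21, 1.79 and 1.65. DEFA3, a defensin, read 3.52, 1.21, 1.62, 5.10 and 3.76, so that here baboons 2 and 3 were the lowest. DEFT1P, a theta-defensin pseudogene in humans, had the same order, from 1.95 in baboon 2 to 6.27 in baboon 4, and as a member of the same family it may share signal with DEFA3. Without baboon 1, the SD of the secondary granule list went from 0.86 to 0.43.

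T cell and cytotoxic genes were lowest in baboon 3, where neutrophil genes were highest. The 27 detected T cell genes averaged 3.77, 3.25, 2.90, 3.82 and 3.56, and the 23 detected genes of natural killer and cytotoxic cells 2.76, 2.32, 1.41, 2.77 and 2.60. Baboon 3 was the lowest for 14 of the 27 and for 17 of the 23. In both lists baboons 1 and 4 were close, and which of them was highest changed with the scaling. CD8B, a coreceptor subunit of cytotoxic T cells, read 6.82, 5.18, 4.60, 6.81 and 6.72. CD4 stood at 6.74 ± 0.27 (SD, n = 5) and CD3D at 5.70 ± 0.42. CCR7, the homing receptor of naive T cells, read 6.43, 6.48, 4.45, 6.29 and 6.59, with baboon 3 alone low. GZMB (granzyme B) read 9.20, 8.25, 7.13, 8.82 and 8.74, and PRF1 (perforin) 5.40, 3.89, 2.91, 4.63 and 4.72. Without baboon 3 the SD of the cytotoxic list went from 0.57 to 0.21. Subtracting the T cell mean from the neutrophil mean gave -1.41, 1.01, 2.32, -0.10 and -0.13 in baboons 1 to 5.

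The mean of the B cell genes differed less between animals than that of the T cell genes. The 21 detected B cell genes averaged 1.35, 1.64, 1.90, 1.69 and 1.93, an SD of 0.23, or 0.15 without baboon 1. The median SD of the members was 0.47, against 0.41 over all genes. Single members ran in opposite orders: CD72 was highest in baboon 1 (9.58) and lowest in baboon 4 (7.88), while BANK1, a scaffold of B cell receptor signalling, was lowest in baboon 1 (0.27) and highest in baboon 3 (2.67). PAX5, the lineage factor of B cells, was at background in all 5. The 11 detected genes of plasma cells, which secrete antibodies, averaged between 2.39 and 2.60, with an SD of 0.0815, or 0.0437 without baboon 1. Single members varied more than their mean, with a median SD of 0.42.

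Monocyte genes followed the order of the neutrophil genes over a narrower range. Their 20 detected members averaged 3.49, 4.11, 4.26, 3.90 and 3.71. CD14 stood at 8.48 ± 0.42 (SD, n = 5), CSF1R (the receptor for macrophage colony-stimulating factor) at 6.94 ± 0.21, and VCAN (versican) read 5.18, 6.76, 7.78, 6.91 and 5.86. Of 14 dendritic cell genes 10 were detected, and CLEC4C, CLEC9A, CD1E and IL3RA were at background in all 5. Of 17 eosinophil and basophil genes 9 were detected in all 5, with CCR3 (the eotaxin receptor) at 2.80 ± 0.28, and PRG2 and EPX, both granule proteins of eosinophils, in none. Of 24 proliferation genes 17 were detected, at a mean of -0.24, with MKI67 at 0.01 ± 0.56.

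Platelet and red cell genes varied in other orders. The 18 detected platelet genes averaged 3.22, 3.78, 4.40, 3.55 and 2.98, with baboon 3 the highest for 15 and baboon 5 the lowest for 11. PF4 read 6.53, 7.15, 7.60, 6.76 and 6.16. Without baboon 3 the list SD went from 0.55 to 0.35. The 25 detected red cell genes averaged 3.65, 3.52, 3.58, 3.15 and 2.65, with baboon 5 the lowest for 18. KLF1, the transcription factor of red cell precursors, read 7.24, 7.59, 7.05, 7.21 and 6.11. HBM, the mu globin, read 8.37, 8.14, 7.76, 7.64 and 6.18. Without baboon 5 the SD of the red cell list went from 0.42 to 0.22, and that of the globin list from 0.26 to 0.13.

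**Figure D3:**
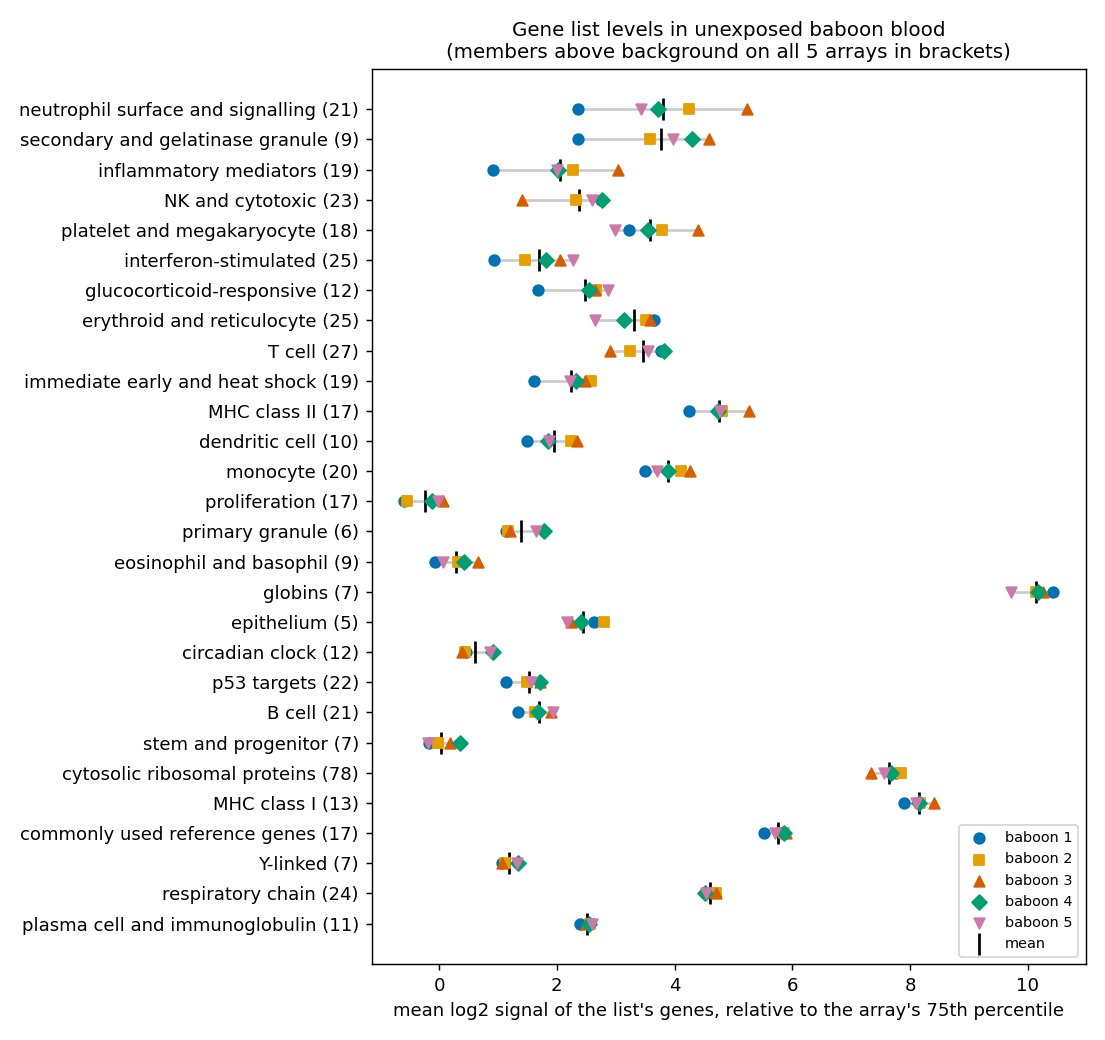
Mean level of the detected genes of each list (x axis, log2 signal relative to the array's 75th percentile) in each of the 5 unexposed baboons, for lists with at least 5 detected members, ordered by the SD between baboons. Black bars mark the mean; the neutrophil list at the top runs from 2.36 to 5.22, and the plasma cell list at the bottom from 2.39 to 2.60.

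The inflammatory and interferon lists had their lowest means in baboon 1. The 19 detected genes of inflammatory mediators averaged 0.92, 2.28, 3.04, 2.02 and 2.00, with baboon 1 the lowest for 14 and baboon 3 the highest for 15. The neutrophil list had the same lowest and highest baboon, with a mean of 2.36 in baboon 1 and 5.22 in baboon 3, and its part in these values was not tested. SOCS3, an inhibitor of cytokine signalling, read -0.07, 1.52, 4.52, 1.89 and 1.31. NFKBIA, the inhibitor of NF-kappa-B that this factor itself induces, read 3.07, 5.49, 5.61, 5.21 and 5.54. The 25 detected interferon-stimulated genes averaged 0.93, 1.46, 2.05, 1.81 and 2.27, with baboon 1 the lowest for 20. HERC5, a ligase for the ubiquitin-like protein ISG15, read -1.22, 1.36, 1.82, 0.95 and 2.49. IFIT1, of the same list, stood at 3.65 ± 0.28 (SD, n = 5), and MX1 and IFI27 were at background in all 5. Without baboon 1, the SD went from 0.76 to 0.49 for the inflammatory list and from 0.53 to 0.35 for the interferon list.

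Genes that respond quickly to stress had their lowest list means in baboon 1 as well. The 12 genes of the glucocorticoid-responsive list averaged 1.67, 2.67, 2.66, 2.56 and 2.87, and the 19 detected immediate early and heat shock genes 1.62, 2.58, 2.48, 2.33 and 2.23. Baboon 1 was the lowest for 6 of the 12 and for 12 of the 19, against 28.35% of all 16851 genes. NR4A2 and HSPA6 were highest in it. FOS, a transcription factor induced within minutes, read 2.16, 5.07, 4.37, 4.63 and 4.01, and DUSP1, a phosphatase of the same response, 2.94, 5.41, 5.38, 4.60 and 5.32. SGK1, a kinase induced by glucocorticoids, read 3.41, 5.12, 6.49, 5.06 and 5.06. Baboon 1 was below the other 4 in each of these 3 genes. Without baboon 1 the SD of the glucocorticoid list went from 0.47 to 0.13 and that of the immediate early list from 0.38 to 0.16. The neutrophil list was lowest in baboon 1 too, and whether it moved these values was not tested.

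The 22 detected targets of p53, which responds to DNA damage, averaged 1.14, 1.5, 1.72, 1.72 and 1.55 in unexposed blood, an SD of 0.24. BTG2, an antiproliferative gene, was the brightest at 5.81 ± 0.64 (SD, n = 5). GADD45A stood at 3.58 ± 0.41 and BBC3, which promotes cell death, at 3.51 ± 0.44. TP53INP1 read 0.63, 2.64, 3.52, 3.1 and 3.04, with baboon 1 alone low. Without baboon 1 the SD of the list went from 0.24 to 0.11.

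Genes of basic cell functions lay within a narrow range. The 24 detected genes of the respiratory chain averaged between 4.51 and 4.71, an SD of 0.10, and the 78 detected genes of cytosolic ribosomal proteins between 7.34 and 7.84, an SD of 0.19. Baboon 3 was the lowest for 54 of the 78, and without it the SD of the ribosomal list was 0.12. The 17 detected reference genes averaged 5.51, 5.86, 5.89, 5.85 and 5.70, an SD of 0.16, which went to 0.083 without baboon 1. Among them ACTB had an SD of 0.26 and B2M (the class I light chain) 0.56. The 10 symbols with the smallest SD among those above level 0 were SARS, SIK3, TRAF3IP3, ZNF565, HGSNAT, USP39, POLR3C, TSPYL1, HADHB and MTMR12. SARS, the seryl-tRNA synthetase, lay between 5.999 (baboon 5) and 6.058 (baboon 4), an SD of 0.025, below the scatter of replicate spots. These were picked for their small SD, and with quantile normalization the SDs of the 10 lay between 0.0447 and 0.15.

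In some of the 20 symbols with the largest SD, a single baboon or a pair stood far from the rest. TOX, a nuclear factor of T cells, read -0.54, -0.98, -0.44, 6.66 and 0.43, so that only baboon 4 was high, and without it the SD went from 3.19 to 0.59. APOBEC3B, a cytidine deaminase that restricts viruses, read -0.78, 4.40, 4.92, -1.54 and -0.45, high in baboons 2 and 3. RPL22L1, a paralog of a ribosomal protein, read -2.43, 4.85, 3.98, 4.46 and 4.20, low only in baboon 1, and without it the SD went from 3.06 to 0.38. HLA-DQA2, an MHC class II alpha chain, read -1.13, 4.71, 2.75, 4.91 and 2.29, again with baboon 1 lowest. RFX8 read 0.01, 3.40, -1.30, -1.41 and -0.78, and a second probe of it had an SD of 0.41 with baboon 1 highest. Letter differences between the animals under these probes were not measured.

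Others of the 20 shared their highest and lowest baboon with the neutrophil list. VNN2, CD177, HP, HPR (haptoglobin-related protein, a near copy of HP that may share its signal), QPCT (a cyclase that modifies peptide ends), CA4 (a carbonic anhydrase) and PROK2 (prokineticin) were all highest in baboon 3 and lowest in baboon 1. PROK2 read -1.49, 2.48, 3.15, 1.63 and 1.27. A second probe of CD177 had an SD of 2.08 and a second probe of QPCT an SD of 1.57, each with the same highest and lowest baboon as the first. Among the 100 symbols with the largest SD, 60 were highest in baboon 3, 68 lowest in baboon 1 and 52 both. Over all 16851 genes, 21.99% were highest in baboon 3, 28.35% lowest in baboon 1 and 12.8% both. The 100 were drawn from the 11763 symbols detected in all 5 baboons. They held 6 of the 21 genes of the neutrophil list, 4 of the 9 of the secondary granule list and 5 of the 19 of the inflammatory list. The primary granule, MHC class II and interferon lists, with 6, 17 and 25 detected genes, had 2 each among the 100.

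**Figure D4:**
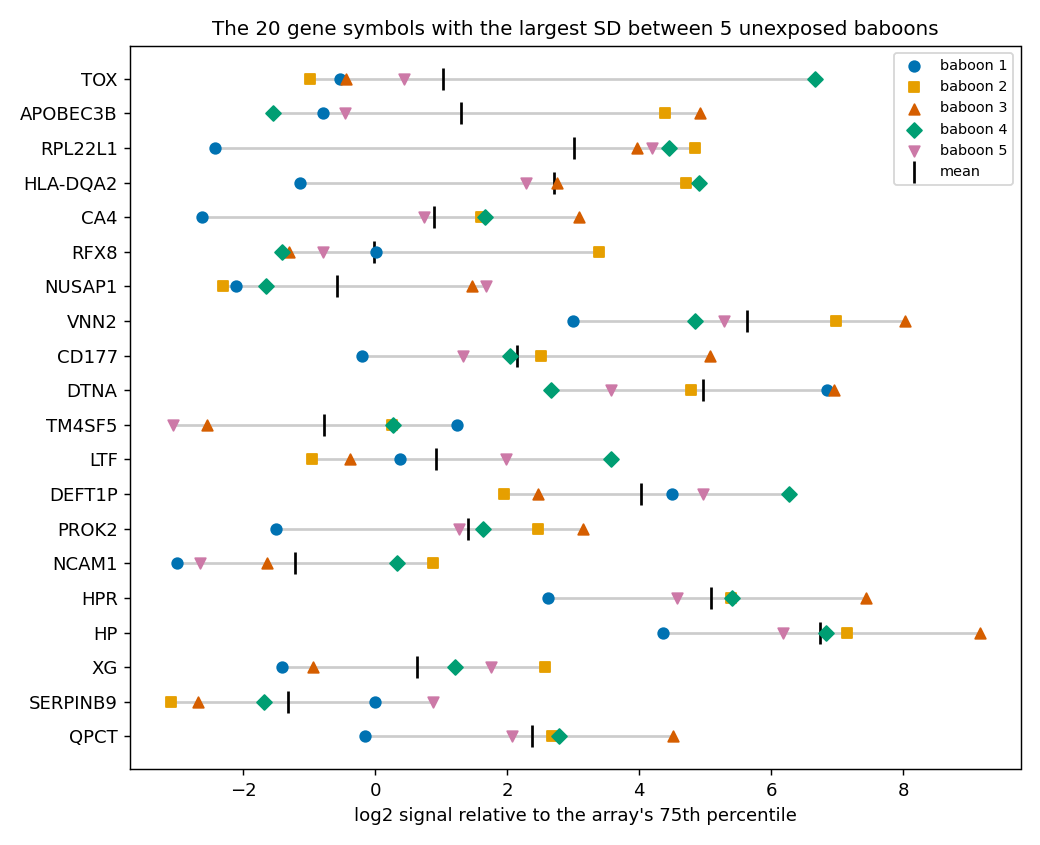
Level (x axis, log2 signal relative to the array's 75th percentile) of the 20 gene symbols with the largest SD, in each of the 5 unexposed baboons, with black bars at the mean. TOX is high in baboon 4 alone, RPL22L1 low in baboon 1 alone, and genes such as VNN2 and CD177 run from baboon 1 up to baboon 3.

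Different probes of a gene agreed better on large differences than on small ones. In 3362 genes with at least 2 detected probes, the same baboon was highest in both of the brightest probes in 46.0%. The share was 62.6% in the tenth of genes with the largest SD in the brighter probe and 31.5% in the tenth with the smallest. Since baboon 1 was the highest in 34.8% of all 16851 genes, unrelated probes would also agree in part, and that share was not tested. In the tenth with the largest SD, the median SD was 0.85 in the brighter probe and 0.58 in the second. In the tenth with the smallest it was 0.15 and 0.31, so a small SD in 1 probe was often not matched by the second.

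Some genes were detected in only part of the animals with a wide gap. PSORS1C3, a noncoding gene of the HLA region, read 3.01, 1.22, 3.98 and 2.24 in baboons 1, 2, 3 and 5 and was at background in baboon 4. HLA-DRB6, a class II pseudogene of the same region, was detected only in baboons 2 and 4, at 1.13 and 1.42. ABCG4, a lipid transporter, was detected only in baboon 3 at 1.35, and MYT1 only in baboon 5 at 0.11. For an array at background only an upper bound on the level exists.

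Spread between animals was compared with that after irradiation, using limma on each sample's absolute deviation from its group mean. Against the day 1 groups, 49 of 20155 genes (0.243%) passed at an adjusted p under 0.05, 39 of them wider in H0 and 10 wider in the irradiated baboons. Against H1-2 day 1 alone the balance turned, with 24 wider in H0 and 39 wider after irradiation. The median deviation was 0.37 in H0 and 0.29 on day 1, or 0.31 and 0.29 without baboon 1. The deviation was larger after irradiation in 34.6% of the genes, and in 53.7% with the slide as a block. Against the day 2 groups, 15 of 20616 genes (0.0728%) passed, 4 wider in H0 and 11 wider after irradiation, and the median deviation was 0.37 in both. This balance turned without H0 replicate 1 (10 and 6), 2 (14 and 6), 4 (11 and 5) or 5 (18 and 11), and without a filter on dim genes (79 and 40). No call was made on either day with deviations from the group median, where 748 and 423 genes had an unadjusted p under 0.05. Leaving out 1 array at a time gave 2 calls (without H1-2 day 1 replicate 3) to 202 (without H0 replicate 3) for day 1, and 0 (without H1-2 day 2 replicate 1 or 3) to 29 (without H0 replicate 5) for day 2. Day 2 arrays had slides and a scan day of their own, so day and batch cannot be told apart there.

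Among the B cell genes, 1 of 22 tested passed for day 1 and 3 of 22 for day 2, each less spread in H0. Over all genes tested, 0.243% passed for day 1 and 0.0728% for day 2. The B cell list is described because it held calls. The only call in another list was the monocyte gene FCGR3A, 1 of 22, on day 2. All 4 B cell calls were lost when any 1 of the 4 H1-2 arrays of that day was left out, and with the replicate block. CXCR5, the homing receptor of B cell follicles, had a deviation of 0.16 in H0 and 1.57 on day 1 (adjusted p = 0.027, limma), and its call was lost with slide or scan day blocks too. SPIB, CD79B and FCER2 had deviations of 0.21, 0.37 and 0.37 in H0 and 0.95, 1.15 and 1.09 on day 2. CXCR5 and FCER2 were each detected on 13 of the 14 arrays of their test, so their deviations include a value at background. Of the genes more spread in H0, CTSD (the protease cathepsin D) had a deviation of 0.64 in H0 and 0.08 on day 1 (adjusted p = 0.019, limma), a call lost with the replicate block.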

How the data were processed

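The members and gene lists were chosen with earlier results of these data known. Agilent Feature Extraction 10.7.3.1 (per the submitters' processing notes and the file headers) read the single-colour arrays, and the deposited scanner files hold background-subtracted spot intensity on a linear scale. Here log2 of that signal was averaged over the spots of a probe, without spots flagged as outliers where others remained, and the array's 75th percentile was subtracted. The authors' deposited table holds log2 values for 39726 probes, 39637 of them on the scanner files. Its 5 columns correlated with their own arrays at 0.998 to 1.00 with a positive slope, all had the median 4.70, and its exact centring is unknown. It served as an alternative.

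A gene was represented by the probe detected on most H0 arrays and, among these, with the highest mean. List levels average the members detected on all 5 arrays; 7 list entries had no probe of that name. Named genes were the 20 highest, the 20 most and 10 least variable symbols, the 10 with the widest gap in detection, and per list the brightest and most variable members, besides defining markers. CXCR5, SPIB, CD79B, FCER2, FCGR3A and CTSD come from the smallest p-values or the called list members. IFIT1 and the brightest symbols without an Alu string were chosen after their values were seen. Spread and batch tests used limma 3.58.1 in R 4.3.3 with Benjamini-Hochberg adjustment over all genes tested, on genes detected on at least 4 of 14 arrays (spread) or on all 5 (batch). Both were tested on simulated data, where the spread test recovered few of the planted differences or none, so its counts of calls say little about how many genes differ in spread. The number of arrays limits the precision. The p-values of the spread tests compare the deviations of arrays from their group means. Those of the batch tests compare slides or scan days that also hold different baboons, so batch and animal cannot be told apart there. Python 3.11.15 and pandas 2.3.3 computed the rest. Alternatives were other scalings, background corrections, filters, probes, blocks and left-out arrays. Whether same-numbered samples come from the same baboon is unknown, and they were not treated as pairs in the main tests. Of 18 pairs of same-numbered samples, 5 had a correlation of deviations over 0.1. In H2-3 day 2 the correlations with H0 were 0.52, 0.11, -0.08, 0.27 and 0.34 for numbers 1 to 5. The 2 samples of a pair also differ in irradiation, so these correlations cannot decide it. Some genes and probe sequences are not reported here.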

Additional observations from a re-analysis of the deposited data

Results flagged for a closer look

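Of 99 list levels, array measures and named genes tested for a baboon far from the other 4, 6 exceeded Dixon's critical value of 0.71. Chance flags about 1 in 20, or 4.95, of values not picked for their spread. TOX and RPL22L1 were picked for a large SD, which a single far baboon can make, so this rate does not apply to them. Named genes not detected in all 5 were left out of the 99. Some of those picked for a wide gap in detection, MYT1 among them, also exceeded 0.71. TOX was at 6.66 in baboon 4, against -0.98 to 0.43 in the others. RPL22L1 was at -2.43 in baboon 1, against 3.98 to 4.85. The glucocorticoid-responsive list was at 1.67 in baboon 1, against 2.56 to 2.87. The brain list, with 4 detected genes, was at 1.79 in baboon 3, against 1.96 to 2.02. The FAM74A4 probe, with an Alu string, was at 11.33 in baboon 2, against 11.59 to 11.68. USP39, picked for its small SD, was at 4.01 in baboon 5, against 3.87 to 3.91.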

How the results depend on the processing

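The number of genes detected in all 5 baboons (16851) was 16906 to 17660 with 1 baboon left out, 18251 when 4 of 5 arrays sufficed and 22263 when 1 sufficed. The median SD between baboons (0.41) was 0.26 with normexp background correction, which compresses dim signals, and 0.29 to 0.46 under the other alternatives, with 0.34 to 0.43 when 1 baboon was left out. It was 0.32 and 0.29 within the slides that hold 2 of the baboons. Leaving out probes with an Alu string, an alternative chosen after seeing the data, gave 0.41. The median SD over the lists (0.31) was 0.24 to 0.35. For day 1, the count of genes whose spread differed (49) was 29 with the authors' table, 10 with detection on all 14 arrays, 173 without a filter, 0 with squared deviations, 0 with the group median, 1 with slide blocks, 6 with scan day blocks and 2 against H2-3 alone, and 2 to 202 with 1 array left out. For day 2 (15) it was 6 with detection on all 14 arrays, 119 without a filter, 0 with the group median, 142 against H1-2 alone, 0 against H2-3 alone and 0 to 29 with 1 array left out. The cause of these changes was not tested. The replicate block gave 0 calls for day 1 and 1 for day 2. Whether same-numbered samples share a baboon is unknown, and their correlations ran from -0.36 to 0.52. The slide test within H0 called 110 genes without a filter, against 11. The slide and scan day blocks could not be fitted for day 2. The highest and the lowest baboon of a list were the same as in the reported values for 25 to 31 of 31 lists under 6 other scalings or probe choices.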
